A study of Rattus norvegicus with 42 samples.

Results

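The genes described here encode subunits of the oxidative phosphorylation complexes, measured in the whole blood of 42 rats. Members were probe sets whose single gene symbol begins with Ndufa, Ndufb, Ndufc, Ndufs, Ndufv, Uqcr, Cox4 to Cox8 or Atp5, or is Sdha, Sdhb, Sdhc or Sdhd or an extension of those names. With the probe set of highest mean kept for each gene, the rule gave 90 of the 14217 genes that have a probe set with 1 symbol. They comprised 36 subunits of complex I, 4 of complex II, 7 of complex III, 16 of complex IV and 15 of complex V. The name rule also took in 10 assembly factors of complexes I and II and 2 others, the ATP synthase inhibitor Atp5if1 and the pseudogene Cox6c-ps1. Complexes were assigned by gene name, so Ndufa4, since recognised as a subunit of complex IV, and its paralog Ndufa4l2 are counted with complex I. The rule reads names, with the mean level used only to pick the probe set of a gene.

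Oxidative phosphorylation is the last stage of respiration in the inner mitochondrial membrane. Complexes I and II feed electrons from NADH and succinate to ubiquinone, complexes III and IV pass them to oxygen, and complex V (ATP synthase) uses the resulting proton gradient to make ATP. Each large complex has a catalytic core surrounded by small accessory subunits, and the core subunits encoded by the mitochondrial genome are not among the members. In blood, leukocytes, platelets and reticulocytes hold mitochondria, while mature red cells do not.

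All rats were male Sprague-Dawley, weighed 280 to 350 g, and gave blood by cardiac puncture under isoflurane at 24 h. There were 6 rats in each of 7 groups: naive (untreated), anesthesia alone, tPA with no middle cerebral artery occlusion (MCAO), reperfused-MCAO (2 h of suture occlusion, then withdrawal) without and with tPA, and permanent-MCAO (suture left in place) without and with tPA. Recombinant human tPA was given intraperitoneally at 3.3 mg/kg, 3 h after onset. No group had surgery without occlusion, and the methods do not state whether the rats given tPA with no MCAO were anesthetised at that time.

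Values are GC-RMA log2 expression, a probe-level normalization that corrects background by base composition. A mean under log2 4 was called dim, and 81 of the 90 members lay above it. The 9 dim members were Ndufa4l2, Ndufaf1, Sdhaf3, Cox6c-ps1 and 5 isoforms of complex IV that are best known from muscle, lung or testis (Cox4i2, Cox6a2, Cox7a1, Cox7b2 and Cox8b). Heart and skeletal muscle markers were also low, with 1 of 11 measured genes above log2 4. The arrays of tPA with no MCAO had the lowest group mean of the added hybridization controls of the array, 11.16 ± 0.75 (SD, n = 6) against 12.22 ± 0.22 with anesthesia. They ran from 9.72 (replicate 2) to 11.69, the upper end lying within the range of naive rats (11.58 to 12.32). The lowest array of any other group was at 11.40. Cell markers also moved in tPA with no MCAO. The mean level of 11 measured erythroid and reticulocyte markers of 12 had a median over arrays of 10.92 (9.02 to 11.38) with tPA and no MCAO and of 12.01 (11.62 to 12.31) with anesthesia, and all 11 lay above log2 4. That of 10 T cell markers had a median of 10.08 (9.84 to 10.50) against 9.33 (9.10 to 9.64), that of 8 monocyte markers 8.68 (8.18 to 8.87) against 8.31 (8.24 to 8.51), and that of 7 platelet markers 9.35 (9.06 to 10.25) against 10.06 (9.81 to 10.62). Anesthesia replicate 1 was the lowest array of its group in the mean of complexes I, III, IV and V. In bulk blood, fewer cells of a type and less RNA per cell cannot be told apart.

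Promoter sequences are shown first for 4 members, chosen because 2 that were lower and 2 that were higher after tPA with no MCAO share motifs. RefSeq windows (GRCr8, 250 bases before to 50 after the gene start) were matched for 82 members. Capitals mark the ETS family motif CCGGAAG, the NRF1 motif GCGCATGCG (nuclear respiratory factor 1) and the YY1 motif AAGATGGCG, on either strand. Atp5me, the membrane subunit e of ATP synthase (chr14:1464610-1464909, + strand), was lower after tPA and holds an ETS match and an NRF1 match whose letters recur on the opposite strand, overlapping it. Ndufs6, a zinc-binding accessory subunit of complex I (chr1:31797150-31797449, + strand), was lower and holds a YY1 match. Uqcrc2, a core protein of complex III (chr1:184598990-184599289, + strand), was higher and holds 2 ETS matches. Ndufs4, an accessory subunit of complex I (chr2:47794865-47795164, - strand), was higher and holds a YY1 match.
Atp5me: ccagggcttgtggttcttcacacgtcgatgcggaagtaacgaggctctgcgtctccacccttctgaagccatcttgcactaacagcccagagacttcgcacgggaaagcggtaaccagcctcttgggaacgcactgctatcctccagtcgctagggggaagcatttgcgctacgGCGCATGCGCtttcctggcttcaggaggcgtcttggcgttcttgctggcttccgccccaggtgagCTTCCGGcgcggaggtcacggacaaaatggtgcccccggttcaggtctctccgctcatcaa
Ndufs6: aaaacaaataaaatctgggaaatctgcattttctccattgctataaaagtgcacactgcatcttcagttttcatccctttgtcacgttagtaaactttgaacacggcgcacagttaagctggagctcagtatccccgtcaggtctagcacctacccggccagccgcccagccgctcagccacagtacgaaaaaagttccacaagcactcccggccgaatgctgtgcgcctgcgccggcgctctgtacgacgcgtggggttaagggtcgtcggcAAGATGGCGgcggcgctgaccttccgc
Uqcrc2: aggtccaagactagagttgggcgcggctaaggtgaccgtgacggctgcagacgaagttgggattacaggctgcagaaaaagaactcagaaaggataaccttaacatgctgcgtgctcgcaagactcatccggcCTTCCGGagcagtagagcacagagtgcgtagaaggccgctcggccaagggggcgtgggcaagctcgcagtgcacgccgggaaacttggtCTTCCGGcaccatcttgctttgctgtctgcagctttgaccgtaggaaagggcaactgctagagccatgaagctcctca
Ndufs4: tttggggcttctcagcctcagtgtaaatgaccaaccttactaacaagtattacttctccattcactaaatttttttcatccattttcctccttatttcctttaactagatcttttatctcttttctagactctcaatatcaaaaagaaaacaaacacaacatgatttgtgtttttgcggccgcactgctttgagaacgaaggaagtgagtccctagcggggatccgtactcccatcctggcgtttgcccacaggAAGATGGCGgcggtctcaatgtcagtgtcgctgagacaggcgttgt

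The ETS motif was present in 25 of the 82 member promoters (30.5%), against 8.75% of all 33469 promoters in the table and 10.7% of the 21851 promoters of protein-coding genes. The NRF1 motif was in 7 member promoters (8.54%, against 1.52% and 1.93%), and the YY1 motif in 11 (13.4%, against 1.73% and 2.07%). At least 1 of the motifs was found in 13 of 34 promoters of complex I, 2 of 4 of complex II, 4 of 6 of complex III, 3 of 13 of complex IV and 7 of 14 of complex V. Neither NRF1 nor YY1 letters occurred in the 13 windows of complex IV. Among members lower after tPA with no MCAO, 16 of 27 promoters held a motif, among those higher 3 of 11, and among those not called 17 of 44. A match describes letters in a window and not a bound site, and these shares were not tested.

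Means of complexes I, III, IV and V were highest with anesthesia and lowest with tPA and no MCAO. The complex I mean was 8.64 ± 0.13 (SD, n = 6) with anesthesia, 8.50 ± 0.11 in naive rats, 8.26 ± 0.12 with tPA and no MCAO, 8.34 ± 0.05 in reperfused-MCAO, 8.33 ± 0.05 in reperfused-MCAO + tPA, 8.48 ± 0.12 in permanent-MCAO and 8.29 ± 0.13 in permanent-MCAO + tPA. Complex V ran from 10.75 ± 0.12 with anesthesia to 10.34 ± 0.27 with tPA and no MCAO. Complex II had another order, with its highest mean, 8.92 ± 0.06, in tPA with no MCAO and its lowest, 8.64 ± 0.17, in permanent-MCAO + tPA. The mean of the assembly factors ran from 5.95 ± 0.22 in permanent-MCAO + tPA to 6.16 ± 0.09 in tPA with no MCAO. For complex I, groups that are neighbours in this order overlap array by array.

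**Figure D1:**
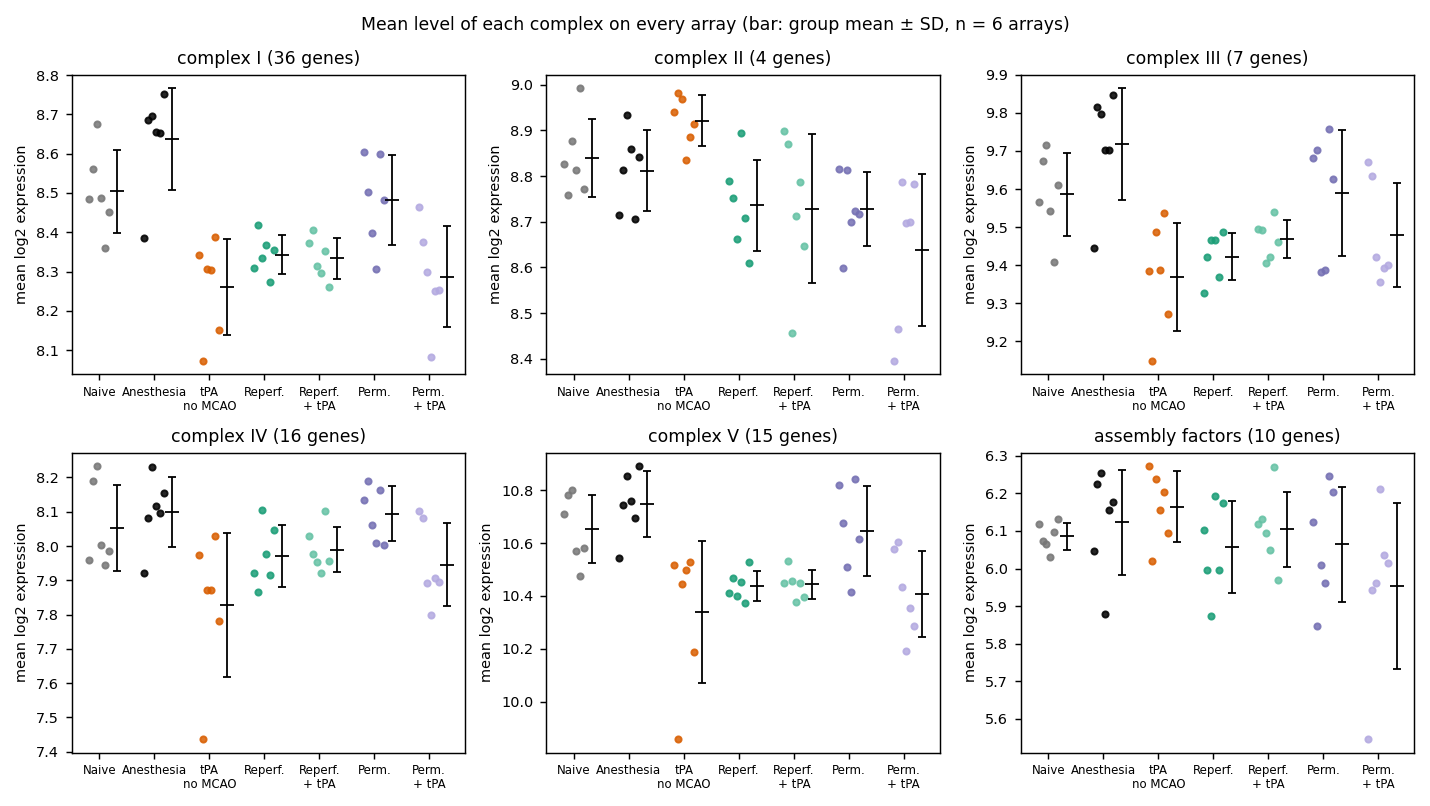
Mean log2 expression of the members of each complex and of the assembly factors (y axis) on every array (points) in the 7 groups (x axis), with group mean ± SD of 6 arrays as bars. For complex I the 6 arrays of tPA with no MCAO and the 6 of reperfused-MCAO lie below 5 of the 6 anesthesia arrays, and for complex II the order differs.

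Any difference among the 7 groups was tested by limma's F statistic for each probe set, adjusted over all 31042. It called 40 of the 90 members, against 9.87% of all probe sets and 20.6% of those above log2 4. By complex these were 17 of 36 in complex I, none of 4 in complex II (smallest adjusted p = 0.0580; all 4 had an unadjusted p under 0.05), 4 of 7 in complex III, 6 of 16 in complex IV and 10 of 15 in complex V, beside 2 assembly factors and Atp5if1. The smallest adjusted p belonged to Atp5f1c (0.00110), the central stalk subunit of ATP synthase. Without the group given tPA with no MCAO, an alternative added after seeing the data, 5 members were called, beside 1.24% of all probe sets.

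The comparison of tPA with no MCAO against anesthesia asks what tPA does in rats without a stroke. More members were called here than in any other comparison of 12 arrays, and calls ran in both directions within each of the 5 complexes. At an unadjusted p of at most 0.01 and a fold of at least 1.2, 42 members were called, 31 lower and 11 higher, beside 13.7% of all probe sets (4.59% lower, 9.15% higher) and 28.7% of those above log2 4. After adjustment over all probe sets 39 of the members passed 0.05, beside 12.5% of all. The median difference was -0.18 over the members, -0.01 over all probe sets and 0.24 over the probe sets above log2 4. The groups did not overlap for 13 members that were lower and 10 that were higher, beside 6.18% of all probe sets. Of the 15 measured subunits on a list of catalytic or core subunits of complexes I, II, III and V, 5 were called higher and 2 lower (median difference 0.12). Of the other 63 subunits, 6 were called higher and 27 lower (median -0.33). The share of members called higher, 11 of 90, was near the 9.15% of all probe sets, dim ones included. The core median was below the 0.24 of the probe sets above log2 4, for which the share called higher is not given here. The core and the other subunits were not tested against each other.

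In complex I, 13 of 36 subunits fell and 2 rose. Ndufa12, an accessory subunit of the peripheral arm, had a lowest, median and highest value of 8.40, 9.54 and 9.81 with tPA and no MCAO and of 10.26, 10.88 and 11.31 with anesthesia, so that no arrays overlapped. Its difference was -1.58 ± 0.27 (SE), with an adjusted p of 0.00948 from limma and p = 0.00216 in an exact two-sided permutation test over the 924 divisions of the 12 arrays, the smallest that this design allows. Ndufc1, a small subunit of the membrane arm, lay at 6.80, 7.03 and 7.46 against 7.80, 8.35 and 8.77, again without overlap. The difference of Ndufc1 was -1.33 ± 0.17 (adjusted p = 0.00463). Ndufa7 fell by 1.07 ± 0.18 (adjusted p = 0.00835) and Ndufs6 fell by 0.59 ± 0.12 (adjusted p = 0.0149). The 2 that rose were Ndufv1, the core subunit that binds NADH, and Ndufs4. Ndufv1 lay at 9.01, 9.13 and 9.37 with tPA and no MCAO and at 8.49, 8.84 and 8.97 with anesthesia, without overlap. It rose by 0.36 ± 0.08 (adjusted p = 0.0223). The remaining core subunits Ndufs1, Ndufs3, Ndufs7, Ndufs8 and Ndufv2 did not pass the threshold.

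Complex II, whose 4 subunits are all encoded in the nucleus, had calls in both directions. Sdha, the flavoprotein that oxidises succinate, lay at 9.14, 9.33 and 9.51 with tPA and no MCAO and at 8.76, 8.97 and 9.13 with anesthesia, without overlap. It rose by 0.37 ± 0.08 (adjusted p = 0.0215). The membrane anchor Sdhc rose by 0.33 ± 0.07 (adjusted p = 0.0143), and the iron-sulfur subunit Sdhb differed by 0.35 ± 0.12 without reaching the threshold (adjusted p = 0.0732). The other anchor, Sdhd, fell by 0.62 ± 0.16 (adjusted p = 0.0314), but a second probe set of Sdhd, at a mean of 7.96, differed by 0.34 in the opposite direction and was not called.

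In complex III the fall was steadiest in Uqcr10, a small subunit that had the smallest p of all members in this comparison. Uqcr10 lay at 8.53, 8.62 and 8.73 with tPA and no MCAO and at 9.22, 9.41 and 9.45 with anesthesia, without overlap. It fell by 0.75 ± 0.05 (adjusted p = 0.000170). Uqcrq, the ubiquinone-binding small subunit, fell by 0.98 ± 0.22 (adjusted p = 0.0198). Uqcrc2, one of the pair of large core proteins, lay at 9.50, 9.66 and 10.01 against 9.03, 9.15 and 9.47, and rose by 0.49 ± 0.10 (adjusted p = 0.0156). Its partner Uqcrc1 differed by -0.05 ± 0.17 and the Rieske protein Uqcrfs1 by -0.08 ± 0.09, neither of them called.

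**Figure D2:**
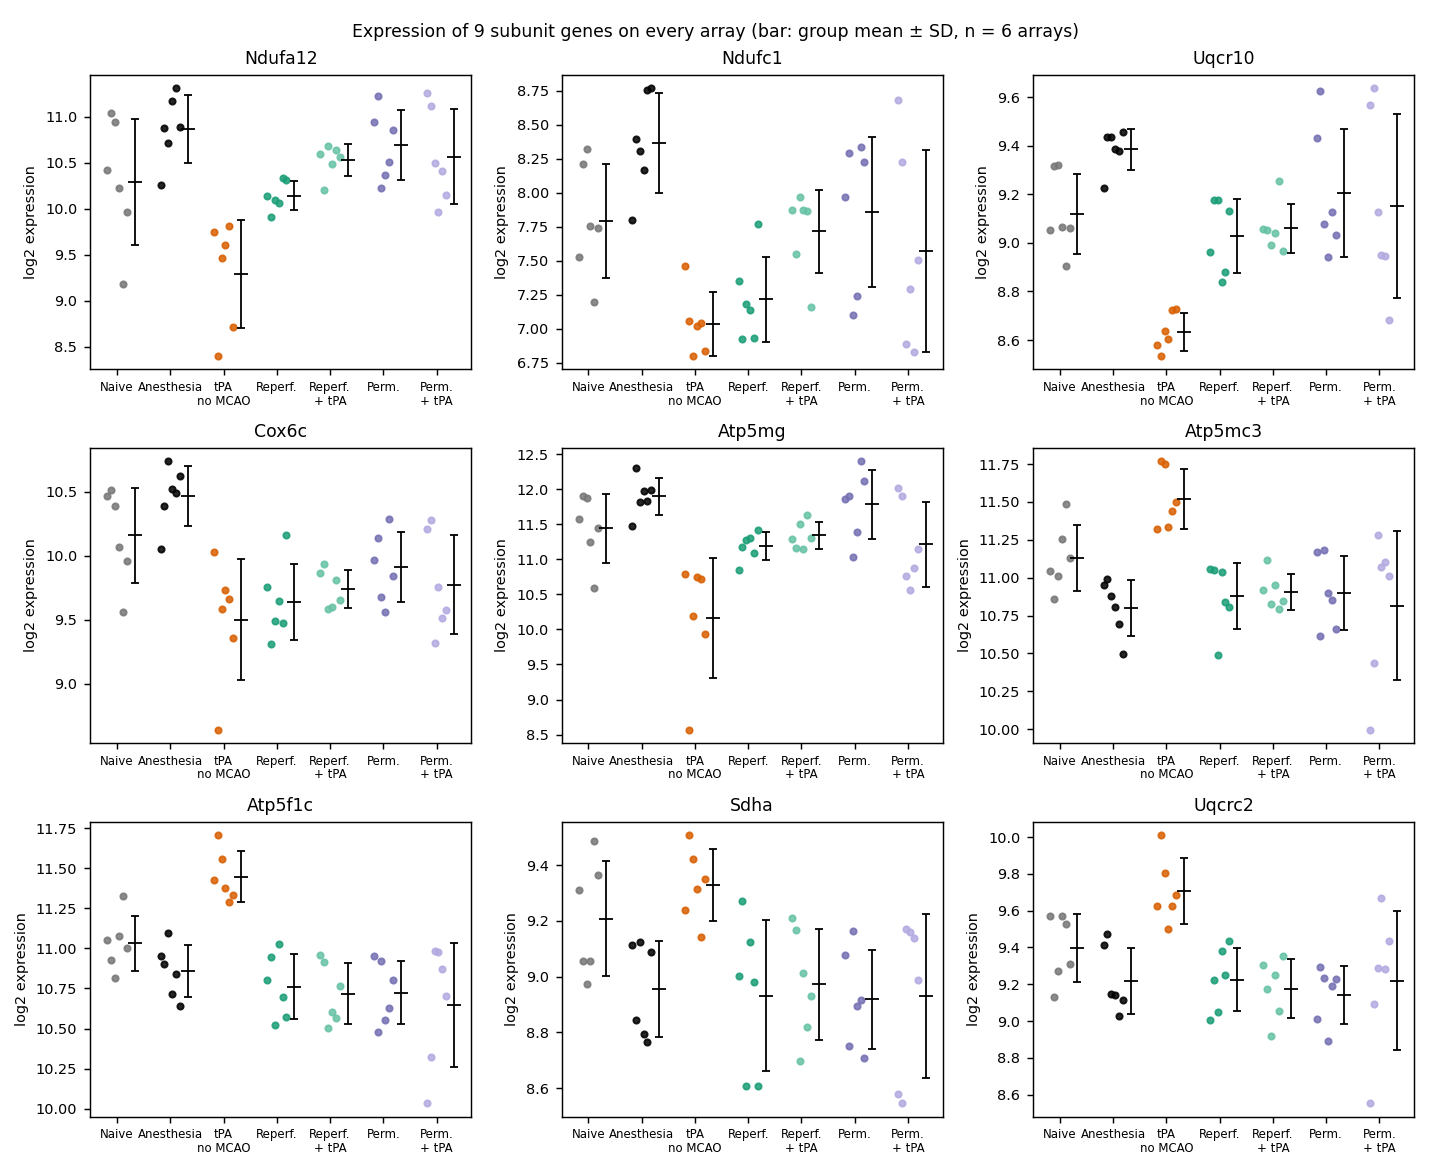
Log2 expression (y axis) of 9 subunit genes on every array (points) in the 7 groups (x axis), with group mean ± SD of 6 arrays as bars. Ndufa12, Ndufc1, Uqcr10, Cox6c and Atp5mg are lowest in tPA with no MCAO, where Atp5mc3, Atp5f1c, Sdha and Uqcrc2 are highest.

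In complex IV, 6 of 16 subunits fell and 3 rose. Cox4i1, the ubiquitous isoform of the subunit that binds regulatory nucleotides, lay at 9.72, 10.24 and 10.52 with tPA and no MCAO and at 10.50, 11.14 and 11.34 with anesthesia, so that only the edges met. It fell by 0.87 ± 0.16 (adjusted p = 0.0117), while its paralog Cox4i2 stayed at the floor (group means of 2.00 to 2.10). Cox6c fell by 0.97 ± 0.21 (adjusted p = 0.0181), Cox6a1 fell by 0.96 ± 0.24 (adjusted p = 0.0279) and Cox7b fell by 1.38 ± 0.39 (adjusted p = 0.0421). Cox5a, a subunit on the matrix side of the complex, lay at 12.24, 12.55 and 12.85 against 11.92, 12.03 and 12.20, without overlap. It rose by 0.50 ± 0.10 (adjusted p = 0.0163), whereas Cox5b fell by 0.54 (adjusted p = 0.0261). Cox7a2l, a paralog of the subunit VIIa isoforms that takes part in joining complexes III and IV into supercomplexes, rose by 0.32 ± 0.08 (adjusted p = 0.0300). Cox6b2, the testis isoform of Cox6b1, rose by 1.07 ± 0.34 from a level near the dim line (group mean 3.88 with anesthesia; adjusted p = 0.0599).

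In complex V, 7 of 15 subunits fell and 3 rose, and most that fell belong to the membrane base or the peripheral stalk. Atp5mg, the membrane subunit g, lay at 8.57, 10.45 and 10.79 with tPA and no MCAO and at 11.47, 11.90 and 12.30 with anesthesia, without overlap. Its difference of -1.74 ± 0.35 (adjusted p = 0.0151) was the lowest of all 90 members. The membrane subunit Atp5me fell by 0.92 ± 0.17 (adjusted p = 0.0128), although a second, dim probe set of it differed by 0.45 in the opposite direction and was not called. Atp5mc3, a gene for the ring subunit c, lay at 11.32, 11.47 and 11.77 against 10.49, 10.84 and 10.99, and rose by 0.72 ± 0.11 (adjusted p = 0.00683). Its paralogs Atp5mc1 and Atp5mc2 share their probe sets with other symbols and were left out. Atp5f1c rose by 0.59 ± 0.09 (adjusted p = 0.00694) and the head subunit Atp5f1a rose by 0.45 ± 0.11 (adjusted p = 0.0281), both without overlap. The catalytic head subunit Atp5f1b, in contrast, fell by 0.63 ± 0.19 (adjusted p = 0.0542). Atp5if1, the inhibitor of reverse ATP hydrolysis, fell by 1.35 ± 0.29 (adjusted p = 0.0186), and a second probe set of it at a mean of 8.60 differed by -0.61 without being called. Among the 10 assembly factors only Ndufaf8 was called, with a fall of 1.25 ± 0.25 (adjusted p = 0.0150).

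**Figure D3:**
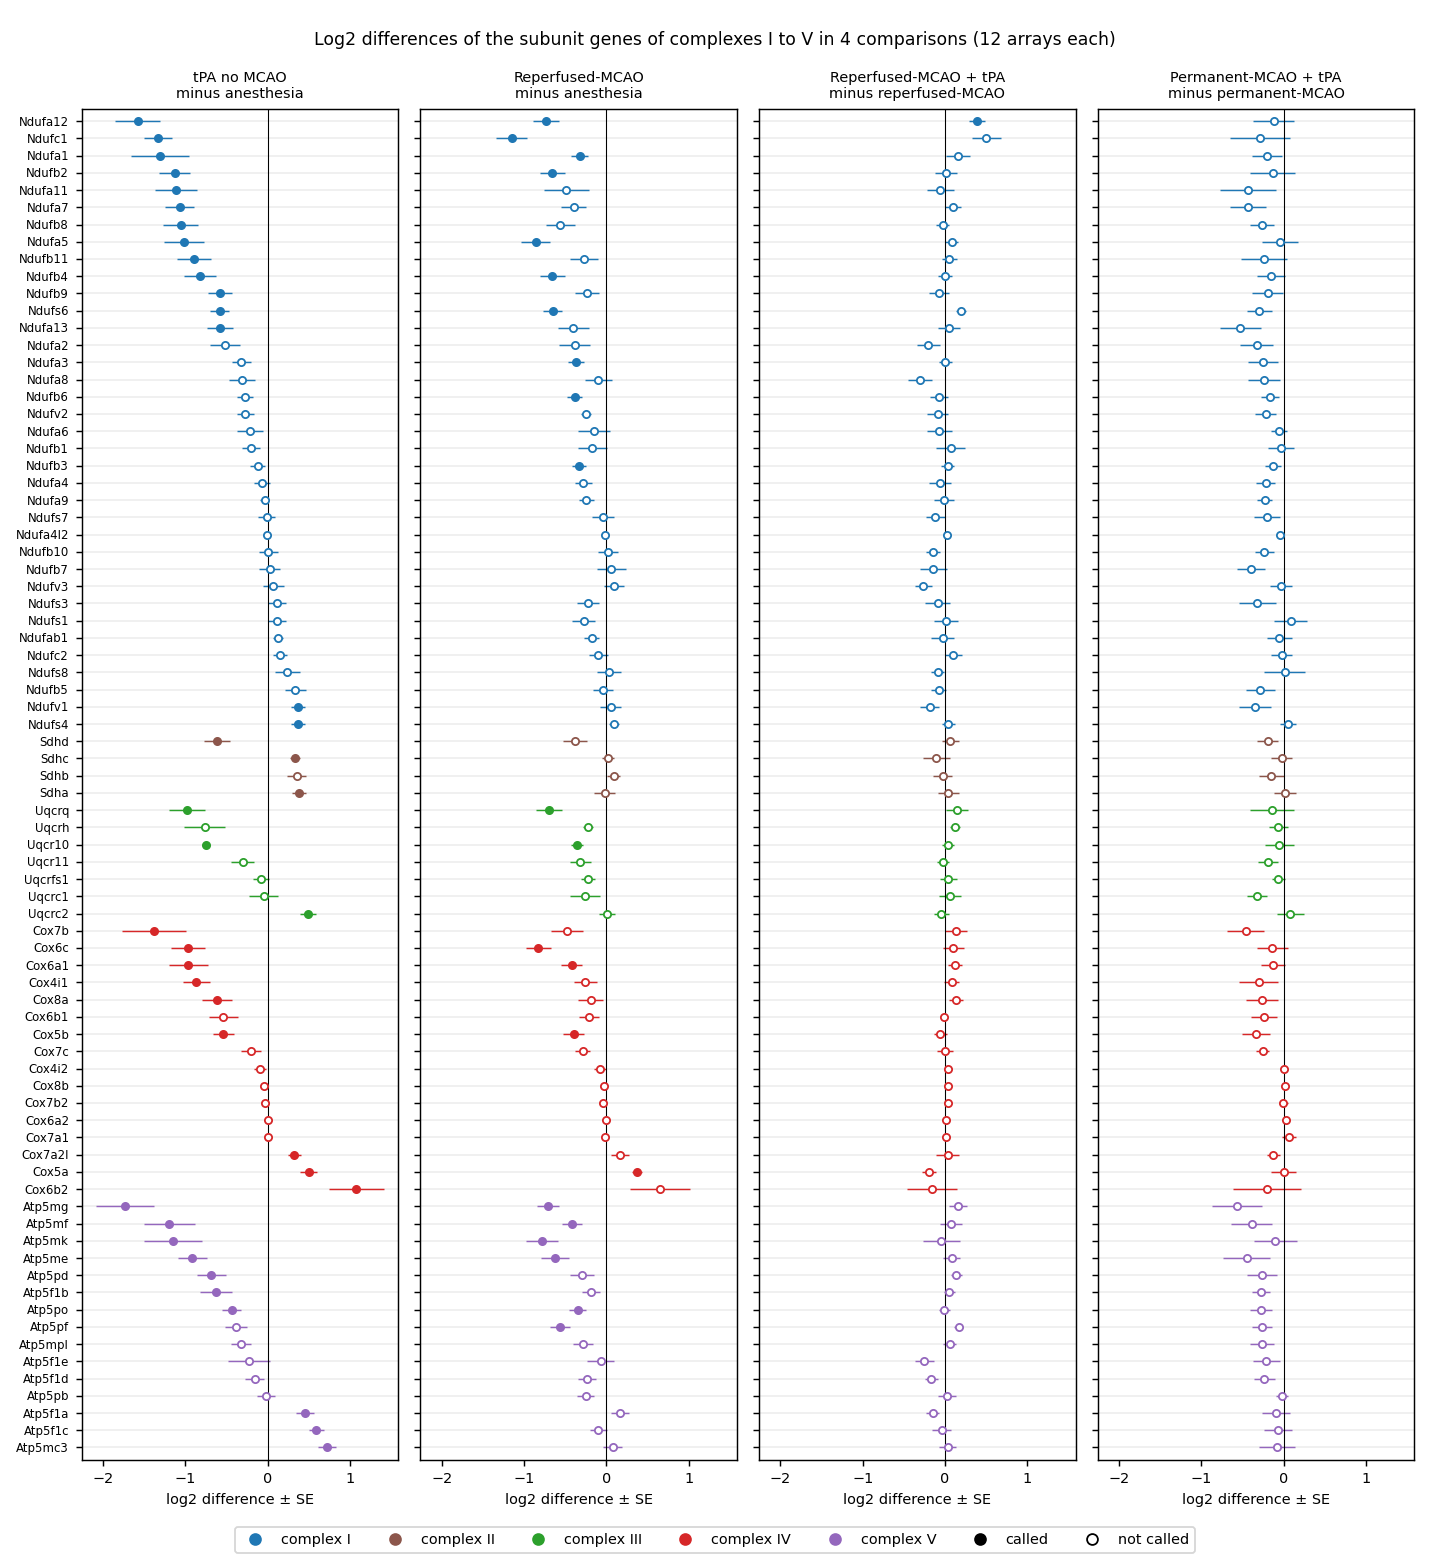
Log2 difference ± SE (x axis) of the 78 subunit genes of complexes I to V (rows, ordered within each complex by the left panel) in 4 comparisons of 6 against 6 arrays; filled points were called at p of at most 0.01 and a fold of at least 1.2. The left panel spans -1.74 to 1.07 with calls in both directions, the second has 22 calls and the tPA comparisons within MCAO have 1 and 0.

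These differences moved together with the array controls and cell markers given above, and their part in the result was not tested. With the hybridization control level as a covariate, 9 members were called in place of 42, and 2.59% of all probe sets in place of 13.7%; Ndufc1 (-1.15), Ndufa7 (-0.64), Uqcr10 (-0.66), Atp5mc3 (0.48) and Atp5f1c (0.38) were among the 9. The control levels of the 2 groups did not overlap (9.72 to 11.69 with tPA and no MCAO, 11.79 to 12.37 with anesthesia). The fit with this covariate therefore cannot separate the control level from the group. Without replicate 2 of tPA with no MCAO, the array with the lowest controls, 41 members were called. With naive rats as the reference, a choice made after seeing the data, 21 were called, beside 5.19% of all.

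**Figure D4:**
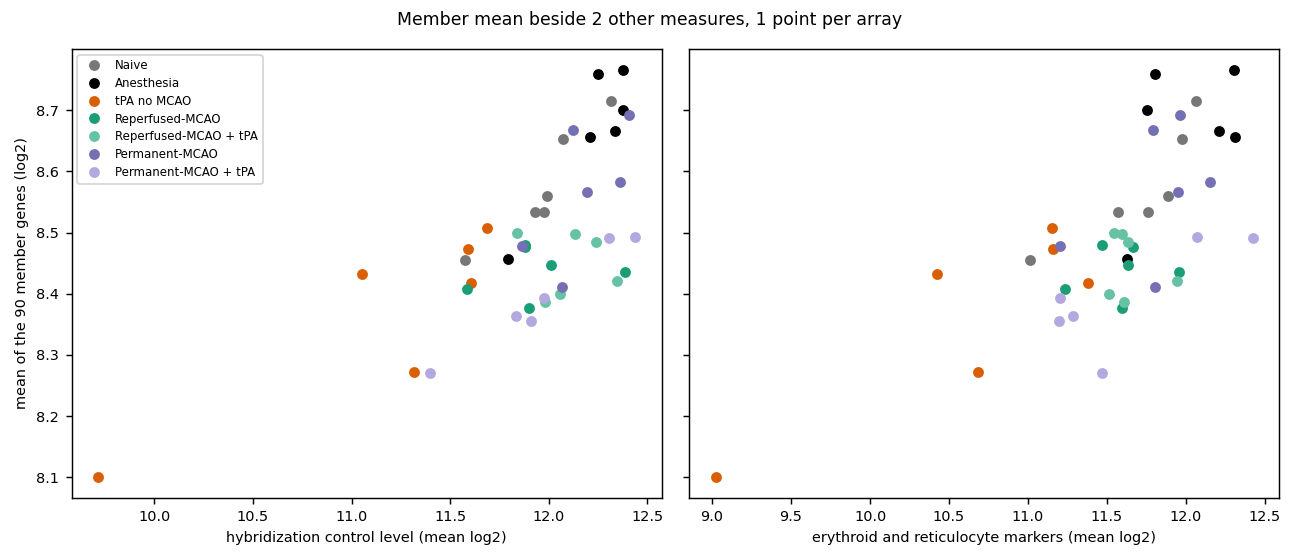
Mean log2 expression of the 90 members (y axis) against the mean of 14 hybridization control probe sets (left x axis, log2) and against the mean of 11 erythroid and reticulocyte markers (right x axis, log2), 1 point for each of 42 arrays, coloured by group. The points of tPA with no MCAO lie at control levels between 11.05 and 11.69, apart from replicate 2 at 9.72.

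Reperfused-MCAO against anesthesia asks how the members differ 24 h after a transient stroke. Nearly all calls were lower: 23 members were called, 22 lower and 1 higher, beside 6.00% of all probe sets (1.91% lower, 4.09% higher) and 13.0% of those above log2 4, and 9 members passed after adjustment, beside 2.11%. The median difference was -0.23 over the members and -0.02 over all probe sets, dim ones included. None of the 15 core subunits was called, and 22 of the other 63 were. This comparison shares its anesthesia arrays with the preceding one, so similar values in both are not independent. Cell markers moved here too: the monocyte markers had a median of 8.88 (8.58 to 9.30) in reperfused-MCAO, above all anesthesia arrays, 9 neutrophil markers 9.01 (8.25 to 10.23) against 8.09 (7.44 to 8.46), 8 NK and cytotoxic cell markers 9.92 (9.52 to 10.46) against 9.32 (8.87 to 9.69), and the erythroid markers 11.61 (11.23 to 11.95) against 12.01. Their part in the result was not tested.

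By complex, 10 of 36 subunits fell in complex I, none of 4 in complex II, 2 of 7 in complex III, 3 of 16 in complex IV and 6 of 15 in complex V. Ndufc1 lay at 6.92, 7.16 and 7.77 in reperfused-MCAO, below all anesthesia arrays, and fell by 1.15 ± 0.19 (adjusted p = 0.0170). Ndufa5 fell by 0.86 ± 0.17 (adjusted p = 0.0329), Ndufa12 fell by 0.73 ± 0.16 (adjusted p = 0.0416) and Ndufs6 fell by 0.65 ± 0.12 (adjusted p = 0.0212). In complex III, Uqcr10 fell by 0.36 ± 0.07 (adjusted p = 0.0264) and lay at 8.84, 9.05 and 9.18, also below all anesthesia arrays. In complex IV, Cox6c fell by 0.83 ± 0.15 (adjusted p = 0.0223). Cox5a was the only member that rose, by 0.37 ± 0.06 (adjusted p = 0.0157), with values of 12.29, 12.44 and 12.58 above all anesthesia arrays. In complex V, Atp5mg fell by 0.71 ± 0.13 (adjusted p = 0.0235), Atp5pf of the peripheral stalk fell by 0.56 ± 0.12 (adjusted p = 0.0440), and Atp5mk of the membrane base fell by 0.78 ± 0.20 (adjusted p = 0.0706). Atp5mc3 (0.08 ± 0.11) and Atp5f1c (-0.10 ± 0.10) were not called here.

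The groups did not overlap for 5 lower members and for Cox5a, beside 2.63% of all probe sets. The count was 41 without replicate 1 of anesthesia (7.42% of all probe sets), 39 with array weights (8.08%), 13 with the control level as a covariate (6.00%) and 5 against naive rats (4.79%).

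Permanent-MCAO against anesthesia gave fewer calls among the members. There were 3, 1 higher and 2 lower, beside 2.78% of all probe sets (1.77% higher, 1.01% lower), and none passed after adjustment, beside 0.145%. In limma 10 had an unadjusted p under 0.05, beside 7.61%. Cox6c lay at 9.56, 9.90 and 10.29 against 10.05, 10.50 and 10.74, overlapping, with a difference of -0.56 ± 0.14 (adjusted p = 0.182). Cox7a2l lay at 11.27, 11.39 and 11.74, above all anesthesia arrays (11.03 to 11.25; 0.809% of all probe sets did not overlap), with a difference of 0.31 ± 0.08 (adjusted p = 0.165). Ndufb6, an accessory subunit of complex I, differed by -0.31 ± 0.09 (adjusted p = 0.289). The median difference of the members was -0.08.

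Few members were called for tPA within either kind of MCAO. In reperfused-MCAO the median difference of the members was 0.02, and only Ndufa12 was called, beside 0.722% of all probe sets. Ndufa12 lay at 10.21, 10.58 and 10.68 with tPA and at 9.91, 10.11 and 10.34 without, a difference of 0.39 ± 0.09 with overlapping groups (adjusted p = 0.542; p = 0.00649 in the exact permutation test). None of the 90 passed adjustment, and 6 had an unadjusted p under 0.05 in limma, beside 7.99%.

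In permanent-MCAO no member was called with tPA, beside 0.322% of all probe sets, and 6 had an unadjusted p under 0.05 in limma, beside 2.31%. The differences nevertheless leaned one way: 76 of 90 were below 0, among them all 15 subunits of complex V. Their median was -0.19, against 0.00 over all probe sets, dim ones included. Members measured on the same arrays are not independent, so this lean has no test here. Atp5mg had the lowest difference, -0.57 ± 0.31, with values of 10.56, 11.01 and 12.02 with tPA and of 11.04, 11.88 and 12.39 without, which overlap widely.

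The difference between these tPA effects, reperfused minus permanent, called 1 member, Atp5pf (0.43 ± 0.13, adjusted p = 0.978), beside 0.296% of all probe sets, and 7 members had an unadjusted p under 0.05 in limma, beside 2.52%. None passed adjustment. For Atp5pf the tPA difference was 0.16 ± 0.06 in reperfused-MCAO and -0.26 ± 0.12 in permanent-MCAO.

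The model of all 42 arrays averages the differences made by tPA in rats with and without MCAO. At p of at most 0.05 and a fold of at least 1.2, this effect was lower in 35 members, beside 5.05% of all probe sets, and higher in 3, beside 6.91%. After adjustment 39 members passed 0.05, beside 4.36%. The 3 higher were Atp5mc3, Atp5f1c and Cox6b2, and among the lower were 15 of complex I, led by Ndufb8 (-0.60, adjusted p = 0.00215) and Ndufa7 (-0.62, adjusted p = 0.00653). With the hybridization control level as a covariate 4 members were called, beside 1.62% of all.

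The interaction, which is the tPA effect with MCAO minus that without, called 47 members, 33 positive and 14 negative, beside 21.0% of all probe sets (6.62% positive, 14.4% negative) and 40.6% of those above log2 4. After adjustment 33 passed, beside 9.47%. Positive values belong to members whose tPA difference was lower without MCAO than with it, such as Ndufa12 (1.71, adjusted p = 0.00286) and Uqcr10 (0.74, adjusted p = 0.00305). Negative ones included Atp5mc3 (-0.74, adjusted p = 0.0102), Atp5f1c (-0.65, adjusted p = 0.00873), Cox5a (-0.59, adjusted p = 0.0122) and Ndufv1 (-0.63, adjusted p = 0.0212). Both results draw on the same arrays of tPA with no MCAO as the comparison above, and 10 members were called for the interaction with the control level as a covariate, beside 6.15% of all probe sets.

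The stroke effect called 14 members, 5 higher and 9 lower, or 15.6%, beside 15.4% of all probe sets (6.02% higher, 9.39% lower). Among probe sets above log2 4, where 81 of the 90 members lie, 31.1% were called. The share of members was thus near that of all probe sets and below that of those above log2 4. Core subunits were among those called lower: Ndufs3 (-0.37, adjusted p = 0.0164), Ndufv1 (-0.30, adjusted p = 0.0270), Uqcrc2 (-0.27, adjusted p = 0.0163) and Ndufs1 (-0.27). Of these Ndufs1 did not pass adjustment (adjusted p = 0.0727). The effect averages MCAO differences without and with tPA, so it too draws on the arrays of tPA with no MCAO. Those arrays held the highest group mean of each of these core subunits. Without tPA, means in reperfused-MCAO, permanent-MCAO and anesthesia were 8.84, 8.77 and 8.79 for Ndufv1. They were 9.22, 9.14 and 9.22 for Uqcrc2, 7.63, 7.64 and 7.85 for Ndufs3, and 7.17, 7.25 and 7.44 for Ndufs1. Atp5f1c had the smallest p (-0.44, adjusted p = 0.000577), and its highest group mean too was in tPA with no MCAO. Without tPA, its means were 10.76 in reperfused-MCAO, 10.72 in permanent-MCAO and 10.86 with anesthesia. The accessory subunits Ndufb3 (-0.26, adjusted p = 0.00216) and Ndufb6 (-0.27, adjusted p = 0.00517) also fell. The 5 called higher were Atp5if1 (0.44), Ndufa1 (0.42), Ndufa12 (0.40), Atp5mf (0.31) and Ndufb11 (0.27). None of them passed adjustment (smallest adjusted p = 0.0678), and all 5 had their lowest group mean in tPA with no MCAO. Without tPA, only Ndufb11 in permanent-MCAO had a mean above that with anesthesia (9.758 against 9.752). Ndufa12 had means of 10.14 in reperfused-MCAO, 10.69 in permanent-MCAO and 10.87 with anesthesia. With the control level as a covariate 0 members were called higher and 14 lower, and with array weights 0 and 10.

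The anesthesia effect in this model called 10 members, 9 higher and 1 lower, beside 3.32% of all probe sets (1.44% higher, 1.88% lower), but none passed after adjustment (smallest adjusted p = 0.980; 13 had an unadjusted p under 0.05 in limma, beside 4.50%). Apart from Uqcr10, those higher were accessory subunits of complex I. This term equals anesthesia minus naive, so the comparison that follows holds the same differences of the same rats. Only the p threshold and the spread used differ. In anesthesia against naive, fitted on 12 arrays, 1 member was called, beside 0.821%: Uqcr10 at 9.22, 9.41 and 9.45 against 8.90, 9.06 and 9.32 (0.27 ± 0.07, adjusted p = 0.940; exact permutation p = 0.0108), and 14 had an unadjusted p under 0.05, beside 4.89%. None passed adjustment, beside 0.00322%.

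Other genes of the pathway, which the name rule does not take in, were read from a list of 66, of which 58 were measured. They included cytochrome c and complex III assembly, assembly factors of complexes IV and V, carriers and porins, citrate cycle enzymes and regulators of mitochondrial biogenesis. After tPA with no MCAO 14 of them were called higher and 2 lower, with a median of 0.27, which is near the background: 28.7% of the probe sets above log2 4 were called and their median was 0.24. The carriers and porins rose in 4 of 7 cases, including the adenine nucleotide carrier Slc25a5 (0.68 ± 0.08, adjusted p = 0.00278), the porin Vdac2 (0.74 ± 0.11, adjusted p = 0.00694) and the phosphate carrier Slc25a3 (0.66 ± 0.10, adjusted p = 0.00694). Surf1, an assembly factor of complex IV, rose by 0.49 ± 0.09 (adjusted p = 0.0117). The 2 lower were subunits of the 2-oxoglutarate dehydrogenase complex, Dlst (-1.59 ± 0.31, adjusted p = 0.0144) and Ogdh (-0.85 ± 0.22, adjusted p = 0.0300). In reperfused-MCAO against anesthesia 3 were called higher and 2 lower, the lower again Dlst (-0.90) and Ogdh (-0.73); this share too was near the background of 6.00% of all probe sets and 13.0% of those above log2 4. The stroke effect called 2 higher and 15 lower, 8 of the lower being assembly factors of complexes IV and V, beside 15.4% of all probe sets and 31.1% of those above log2 4. tPA within reperfused-MCAO called none of the 58, and within permanent-MCAO 1.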

How the data were processed

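Whole blood RNA of 42 rats was amplified with Ovation Whole Blood reagents and hybridized to Affymetrix Rat Genome 230 2.0 arrays. The deposited log2 values were made by the authors in Partek software with GC-RMA. The table holds 31099 probe sets, of which 57 controls were set aside and 31042 tested; 14 of the controls (bioB, bioC, bioD) gave the hybridization control level. The number of arrays limits the precision, and each array is a separate rat.

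Each probe set was named through the platform's annotation table (20826 probe sets with 1 symbol, 436 with several, 9780 with none). The rule fitted 101 probe sets; 10 genes had several, and 7 probe sets with several symbols were left out. The members and lists were chosen with earlier results of these data known. Analysis used limma 3.58.1 in R 4.3.3 on log2 values: terms for tPA, stroke, anesthesia and tPA by stroke over 42 arrays (p at most 0.05), pairs of groups over 12 arrays and the difference of tPA effects over 24 (p at most 0.01), each with a fold of at least 1.2, and an F test over 7 groups (adjusted p at most 0.05). Benjamini-Hochberg adjustment ran over all probe sets, and adjusted p values are from limma. Exact tests used all 924 divisions of 12 arrays, two-sided. Fits were tested on simulated data. Named were, for each complex and comparison, up to 3 called members of smallest p, the 2 called most often, isoforms and core subunits. For the pathway list the 4 of smallest p were named. Ndufs4, Ndufb11, Ndufaf8, Atp5if1 and Ogdh were named after their values were seen.

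Replicate numbers recur in every group and were not treated as pairs: of 21 pairs of groups none had every same-numbered correlation over 0.1. Naive against permanent-MCAO + tPA had 4 of 6 over 0.1 (mean 0.13), and a partial pairing cannot be told from this count. Alternatives were a replicate block, array weights, centring, quantile scaling, removal of dim probe sets, the methods' ANOVA without moderation, means over a gene's probe sets, a spread shared over 42 arrays, the control level as covariate, another anesthesia coding, and omission of each array; naive rats as reference and an F test on 6 groups were added after seeing the data. Figures were drawn with matplotlib 3.10.9 in Python 3.11.15.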

Additional observations from a re-analysis of the deposited data

Results flagged for a closer look

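The 2 members of each complex called in most comparisons (10 genes) and the means of the 5 complexes were screened in each group for an array far from the other 5. Of 105 sets of 6 arrays 10 had such an array. Chance gives about 1 in 20 for a single set, but these sets share arrays and genes. They are not independent, so the count was not tested against chance. Anesthesia replicate 1 was low in 5 of them: Cox6a1 at 12.34 (others 12.82 to 13.00), Ndufs6 at 8.51 (others 9.01 to 9.25), Uqcr10 at 9.22 (others 9.38 to 9.45), the complex I mean at 8.39 (others 8.65 to 8.75) and the complex III mean at 9.45 (others 9.70 to 9.85). Replicate 2 of tPA with no MCAO was low in 3: Atp5mf at 8.44 (others 9.87 to 10.41), Sdhd at 8.28 (others 8.80 to 8.96) and Uqcrq at 7.66 (others 8.49 to 8.88). Reperfused-MCAO + tPA replicate 5 was low for Cox6a1 at 12.35 (others 12.51 to 12.60) and high for Uqcr10 at 9.25 (others 8.97 to 9.06).

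The tPA effect with MCAO minus that without differed from 0 after adjustment in 9 of the same 10 members, by limma's interaction term, beside 33 of all 90 members and 9.47% of all probe sets. These 10 were chosen by how often they were called, the interaction included, so their share is a description. It was 1.71 for Ndufa12, 1.03 for Atp5mf, 0.98 for Uqcrq, 0.96 for Cox6a1, 0.95 for Cox6c, 0.74 for Uqcr10, 0.55 for Sdhd and 0.53 for Ndufs6, and negative, -0.74, for Atp5mc3. The adjusted p ran from 0.00286 (Ndufa12) to 0.0430 (Sdhd).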

How the results depend on the processing

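Counts of members called are given here in the order of the settings. With the hybridization control level as a covariate they were 4 for the tPA effect, 3 for the anesthesia effect, 10 for the interaction, 9 for tPA with no MCAO, 13 for reperfused-MCAO against anesthesia, 2 and 1 for tPA in reperfused and permanent MCAO, 0 for anesthesia against naive, 2 for the difference of tPA effects and 8 for the F test. Array weights gave 21 for the anesthesia effect, 39 for reperfused-MCAO, 7 for permanent-MCAO, 9 for anesthesia against naive, 8 for the difference and 3 for tPA in permanent-MCAO. The replicate block gave 0 for permanent-MCAO, 2 for anesthesia against naive, 2 for the difference and 3 for tPA in permanent-MCAO, and no other count moved by over 1.5 times; 1 of 42 arrays correlated best with its own number. A spread shared over all 42 arrays gave 0 and 1 for tPA in reperfused and permanent MCAO, 6 for permanent-MCAO and 2 for anesthesia against naive. Leaving out dim probe sets gave 1 for permanent-MCAO, 0 for anesthesia against naive and 0 for the difference; centring gave 0 and 2 for the last pair, and quantile scaling 2 for the difference. Coding tPA with no MCAO as not anesthetised gave 25 for the tPA effect. Naive rats as reference gave 21 for tPA with no MCAO, 5 for reperfused-MCAO and 0 for permanent-MCAO, and the F test on 6 groups gave 5. The causes were not tested.

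With each array left out in turn, counts ran from 35 to 41 for the tPA effect, 43 to 49 for the interaction, 37 to 47 for tPA with no MCAO, 1 to 3 and 0 to 2 for tPA in reperfused and permanent MCAO, and 1 to 5 for the difference (highest without permanent-MCAO + tPA replicate 1). The stroke effect ran from 7 (without permanent-MCAO + tPA replicate 1) to 19, the anesthesia effect from 2 (without naive replicate 5) to 21, reperfused-MCAO from 17 to 41, permanent-MCAO from 1 to 9, and anesthesia against naive from 0 to 10, the highest of these 4 without anesthesia replicate 1. The F test ran from 22 (without replicate 2 of tPA with no MCAO) to 50 (without anesthesia replicate 1). Single members were recomputed under the settings other than array omission. They were the called ones of smallest p in each complex, in tPA with no MCAO and reperfused-MCAO, both against anesthesia. Of 260 such differences 226 kept their call, 34 lost it and 0 changed sign. All began as called, so none could gain a call.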
